A study of Mus musculus with 3 samples.

Results

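The cells described here were tumor neutrophils that held at least 1 transcript of the chemokine gene Ccl3 and none of the chemokine receptor gene Cxcr2. They were chosen in single-cell RNA-seq of live CD45+ immune cells sorted from mouse 4T1 mammary tumors. A cell counted as a neutrophil when at least 3 of the 8 genes Csf3r, Cxcr2, Hdc, Il1r2, Retnlg, G0s2, Trem1 and Mmp9 were detected and at most 1 of the 6 genes Fn1, Ccr2, C1qa, C1qb, Cd3e and Nkg7. A neutrophil was a member when it also had no transcript of F3, the tissue factor gene, and fewer than 3 of the 7 interferon-response genes Ifit1, Ifit2, Ifit3, Ifit3b, Rsad2, Cmpk2 and Usp18. This gave 496 members among 6130 neutrophils, 12472 kept cells and 16143 deposited barcodes. They came from all 3 libraries, with 179 members in vehicle, 225 in p38i and 92 in p38KO. Kept cells had 1500 UMIs or more, 300 genes or more and a mitochondrial share of up to 20%. Transcripts are given as UMIs, unique molecular identifiers, which count a captured molecule a single time however often it was read. The members were chosen by their measured counts of these genes, so values of those genes, and differences of any gene from other neutrophils, are a description. Summed over the members the libraries held 431799, 529832 and 198699 UMIs, with medians of 2163, 1948 and 2044 per cell, and no member's barcode was a member in another library.

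All 3 groups were female BALB/c mice, 6 to 8 weeks old, that received 200000 4T1-luc cells in the 4th mammary fat pad. 4T1-luc is a metastatic mouse mammary carcinoma line that carries a luciferase reporter. In the vehicle group the mice were given DPBS, and in the p38i group LY2228820 (ralimetinib), an inhibitor of p38 MAPK, at 30 mg/kg by daily oral gavage for 10 days from day 4. In the p38KO group the implanted cells were a CRISPR/Cas9 clone labelled H9, in which p38α (Mapk14) had been inactivated. The neutrophils of those mice therefore kept an intact Mapk14 gene, whereas the inhibitor could reach tumor and host cells alike. No treatment is recorded for the p38KO mice, so p38KO and vehicle may differ in handling as well as in tumor genotype. Tumors were taken on day 14, and 3 tumors were pooled into 1 library per group. With 1 library each, the group and the preparation of its library cannot be told apart, no test between groups was possible, and every interval below covers counting error only.

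Neutrophils are short-lived granulocytes that leave the bone marrow with ready-made granule proteins and are drawn into tissue through receptors such as CXCR2, which binds CXCL chemokines. In tumors they can lose CXCR2 from the surface and take up other programmes, among them the secretion of CCL3 and CCL4, chemokines that attract other leukocytes. p38 MAPK is a stress kinase that acts through MAPKAPK2 and the mRNA-binding protein tristetraprolin (Zfp36) on the stability of many cytokine and immediate-early transcripts, and DUSP1 is the phosphatase that switches it off. HILPDA is a small lipid-droplet protein induced by hypoxia, HCAR2 is a receptor for hydroxybutyrate and niacin, GADD45B is a stress protein that signals to MAP kinases, and CSF3R is the receptor for G-CSF.

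Promoter sequences are shown for 3 genes that lead the description of these cells. Ccl3 (chr11:83647844-83649355, minus strand) named the cells, Hilpda (chr6:29272488-29275446, plus strand) was a marker gene among the highest in them, while Nceh1 (chr3:27182965-27284608, plus strand) encodes a cholesteryl ester hydrolase that was also among the highest. Each window holds 250 bases before and 50 after a RefSeq transcript start on GRCm38.p6, written 5′ to 3′ on the gene's strand. The windows lie at chr11:83649329-83649628, minus strand, for Ccl3, at chr6:29272376-29272675, plus strand, for the second annotated start of Hilpda, and at chr3:27182754-27183053, plus strand, for Nceh1. Capitals mark matches on either strand to the core letters of the hypoxia-response element (ACGTG), to GCGTG, to CACGTG (the E-box or CLEAR core, which contains ACGTG on both strands), to the AP-1 letters TGANTCA and to an NF-kB core, GGG and TTCC parted by any 3 letters.
Ccl3: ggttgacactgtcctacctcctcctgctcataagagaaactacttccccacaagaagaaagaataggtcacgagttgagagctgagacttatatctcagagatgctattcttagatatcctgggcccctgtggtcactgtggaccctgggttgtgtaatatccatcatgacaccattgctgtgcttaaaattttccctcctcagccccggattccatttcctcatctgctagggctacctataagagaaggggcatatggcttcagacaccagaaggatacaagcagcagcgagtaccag
Hilpda: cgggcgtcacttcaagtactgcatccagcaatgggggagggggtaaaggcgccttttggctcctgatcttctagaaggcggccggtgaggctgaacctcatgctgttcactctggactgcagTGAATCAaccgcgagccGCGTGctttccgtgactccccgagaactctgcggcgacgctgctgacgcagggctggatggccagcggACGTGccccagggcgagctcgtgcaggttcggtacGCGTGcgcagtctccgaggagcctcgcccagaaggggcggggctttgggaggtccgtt
Nceh1: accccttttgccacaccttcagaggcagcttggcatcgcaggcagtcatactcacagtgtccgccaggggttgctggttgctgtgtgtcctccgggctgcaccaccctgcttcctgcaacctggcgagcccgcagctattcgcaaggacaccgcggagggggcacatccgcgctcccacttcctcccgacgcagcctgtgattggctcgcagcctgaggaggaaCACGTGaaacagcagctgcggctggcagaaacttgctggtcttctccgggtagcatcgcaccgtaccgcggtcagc
The Hilpda window shown held 1 ACGTG, 2 GCGTG and 1 TGANTCA, while the overlapping window of its first start held no ACGTG, 1 GCGTG, 1 TGANTCA and 1 NF-kB core. The Nceh1 window held 1 CACGTG with the ACGTG it contains on each strand, and the Ccl3 window none of these letters. Of the 20 genes highest in the members, 15 had a RefSeq promoter in the table used, with 24 windows between them. ACGTG stood in 9 of those 24 windows (37.5%), against 19.6% of 32851 windows of all genes. For GCGTG the shares were 12 of 24 (50%) against 32.4%, and for TGANTCA 4 of 24 (16.7%) against 7.81%. Among the 20 genes lowest in the members, 17 had 25 windows, of which 4 (16%) held ACGTG, 9 (36%) GCGTG, 3 (12%) TGANTCA and 6 (24%) the NF-kB core, against 5.56% of all windows for the last. The NF-kB core stood in 2 of the 24 windows of the highest genes (8.33%), and TGANTCA was above its share of all windows in both sets. Several windows of 1 gene overlap, a match is not a binding site, and these shares are a description.

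Members were a smaller part of the neutrophils in the p38KO library than in the others. They made up 8.83% of 2028 neutrophils in vehicle (95% Clopper-Pearson interval 7.63 to 10.1), 9.19% of 2447 in p38i (8.08 to 10.4) and 5.56% of 1655 in p38KO (4.50 to 6.77). The p38KO interval lay below both others, while those of vehicle and p38i overlapped over most of their length. Of all kept cells the shares were 4.69%, 4.69% and 2.38%. Since libraries differed in depth and the choice rests on detection, each cell was also thinned to 1500 UMIs, which left out no cell. The shares then became 10.96% (9.61 to 12.4), 11.2% (9.95 to 12.5) and 7.28% (6.08 to 8.64), in the same order. In p38KO a larger share of neutrophils met the interferon criterion, which took precedence over membership, with 19.1%, 7.15% and 26.8% of neutrophils in vehicle, p38i and p38KO. Neutrophils with neither Ccl3 nor Cxcr2, nor F3 or the interferon criterion, were also the smallest part in p38KO. Their shares were 6.16%, 8.58% and 4.47% at own depth and 10.6%, 15.4% and 7.70% after thinning.

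**Figure D1:**
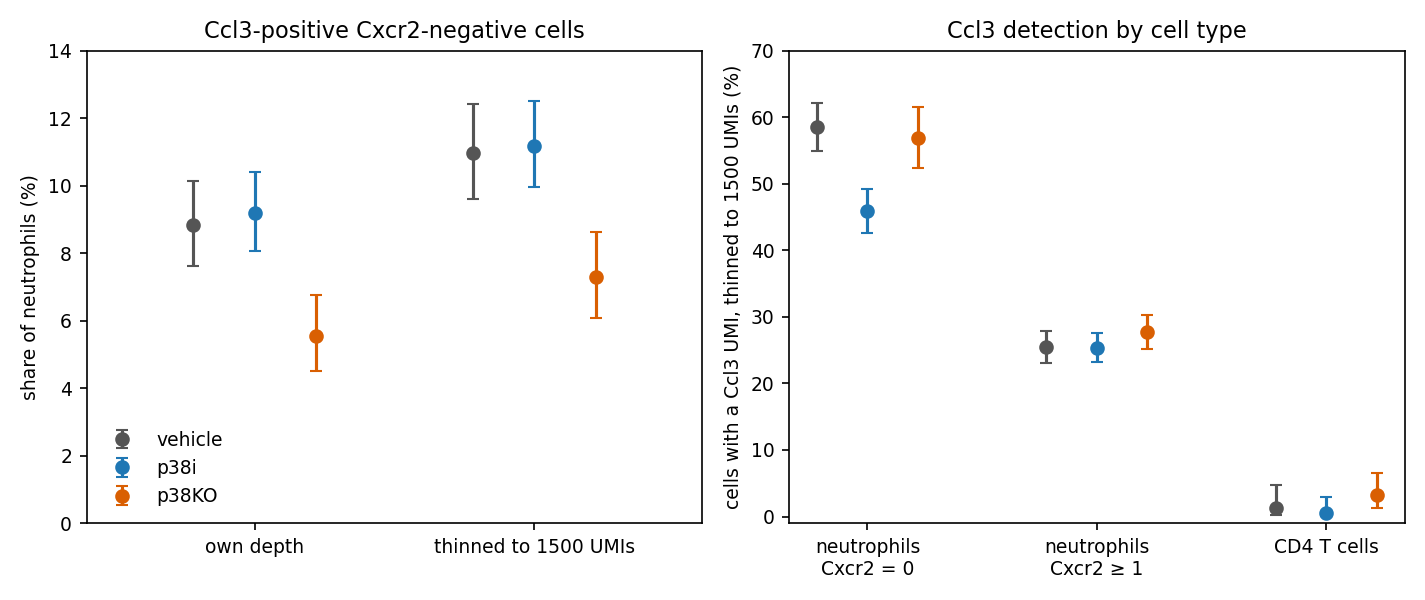
Left, the share of neutrophils that were Ccl3-positive and Cxcr2-negative (y axis, percent) in each library at its own depth and after thinning to 1500 UMIs. Right, the share of cells with a Ccl3 UMI after thinning in neutrophils without and with Cxcr2 and in CD4 T cells. Points are single libraries of vehicle, p38i and p38KO and bars are 95% Clopper-Pearson intervals, and the p38KO share on the left (5.56% at own depth) lies below the others.

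The detection of Ccl3 was next read in all neutrophils, those with F3 or interferon-response genes included, since every member had Ccl3 by choice. After thinning, a Ccl3 UMI was seen in 58.6%, 45.9% and 57.0% of neutrophils without a Cxcr2 UMI in vehicle, p38i and p38KO. In neutrophils with Cxcr2 the shares were 25.4%, 25.4% and 27.7%. CD4 T cells (at least 2 of Cd3d, Cd3e, Cd3g and Trac with Cd4, without Cd8a or Csf3r) gave 1.32% of 151, 0.546% of 183 and 3.26% of 215 cells. Before thinning the median depths were 2366, 2141 and 2105 UMIs in neutrophils without Cxcr2 and 4307, 3555 and 4790 in CD4 T cells. Both neutrophil shares lay above the CD4 T cell share of their library beyond counting error, although in a single member with 1 UMI free Ccl3 RNA and expression cannot be told apart.

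Ccl3 counts were spread unevenly over the members. With 1 Ccl3 UMI there were 32 of 179 members in vehicle, 58 of 225 in p38i and 23 of 92 in p38KO, and with 10 or more there were 52, 40 and 26. The median member held 4, 3 and 4 Ccl3 UMIs, and the highest 105, 57 and 150. The 10 highest cells held 33.9%, 26.1% and 55.4% of all Ccl3 counts of their library's members. These 10 cells are a larger part of the 92 p38KO members than of the 179 and 225 others.

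**Figure D2:**
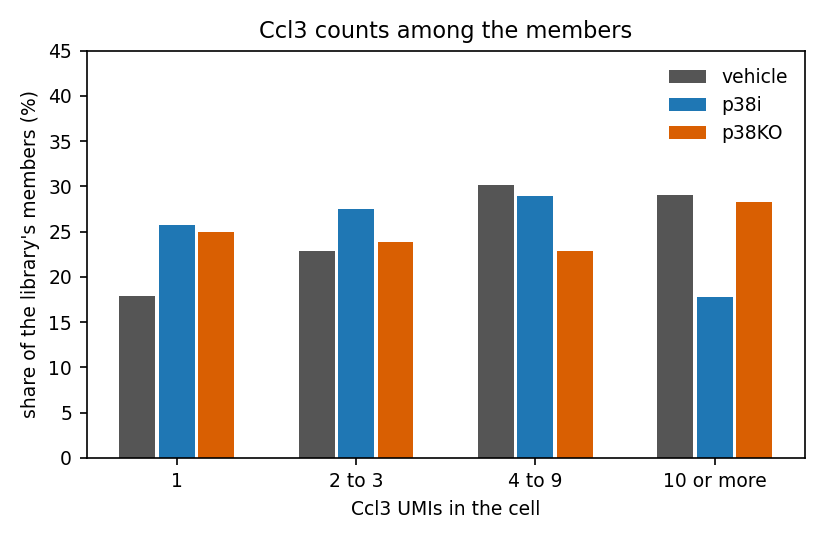
Share of each library's members (y axis, percent) with 1, 2 to 3, 4 to 9, or 10 or more Ccl3 UMIs (x axis). Bars are single libraries without replicates, and p38i has the most members with 1 UMI (58 of 225) and the smallest part with 10 or more (40 of 225).

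At the threshold itself, the values on either side were as follows. Neutrophils with neither Ccl3 nor Cxcr2, nor F3 or the interferon criterion, had median depths of 2114, 1916 and 1815 UMIs, against 1948, 1917 and 2006 in members with 1 Ccl3 UMI. The deepest cell with neither gene held 14986 of 299521, 34513 of 526560 and 28245 of 173728 summed UMIs of that group. Ccl4 stood at 294, 192 and 898 CPM (counts per 1000000 summed UMIs) with 0 Ccl3 UMIs, at 1317, 968 and 1354 CPM with 1, and at 3605, 1765 and 13214 CPM with 3 or more. Hilpda stood at 2123, 1208 and 1923 CPM with 0 Ccl3 UMIs and at 2756, 2545 and 1729 CPM with 1. Ccl4 was thus higher at each of these steps in every library, although members with 2 Ccl3 UMIs in p38i, at 788 CPM, lay below those with 1. Hilpda was higher with 1 UMI than with 0 in vehicle and p38i but not in p38KO. With 2 UMIs it stood at 1713, 2434 and 3047 CPM, in vehicle below the cells with 0, and with 3 or more at 3754, 2836 and 2578 CPM.

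The choice required neutrophil genes, so their presence follows in large part from it. Of 18 neutrophil markers, 17 had a UMI in the members of each library, the missing one being Cxcr2, which the choice set to 0. S100a9, a subunit of calprotectin that the choice did not use, was the most abundant of them, at 70639, 77660.5 and 64162 CPM in vehicle, p38i and p38KO. The median member had 761, 745 and 697 genes and a mitochondrial share of 0.254%, 0.312% and 0.573%. Csf3r had a UMI in 64.8%, 62.2% and 65.2% of members after thinning. At least 3 markers of 1 other cell type were found in 7, 11 and 6 members. The macrophage list summed to 192, 179 and 533 CPM in vehicle, p38i and p38KO, led by Apoe at 92.6, 90.6 and 282 CPM, and at least 2 of its 12 genes were seen in 7, 6 and 23 members. The mast cell and basophil list summed to 11.6, 5.66 and 131 CPM, with Tpsb2 its most abundant gene in p38KO and Cpa3, another gene of that list, at 0 in all libraries. Both lists were highest in p38KO among the members, and other neutrophils of that library held them too. The macrophage list stood at 535 CPM in Cxcr2-positive p38KO cells and at 409 in those with neither Ccl3 nor Cxcr2, and the mast cell list at 1544 and 1508 CPM. The eosinophil list reached at most 15.1 CPM, with Epx and Prg2 at 0 in all libraries.

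Against all other neutrophils of the same library, the members were higher in most hypoxia and glycolysis genes measured and lower in most granule genes. Of 6654 genes measured, 77 (1.16%) were at least 2-fold higher in all 3 libraries and 225 (3.38%) at least 2-fold lower. The choice used this contrast, so no test was made, and the counts describe the cells chosen. The other neutrophils were deeper, with medians of 2502, 2219 and 2142 UMIs against 2163, 1948 and 2044 in the members. After thinning, 47 of the 77 and 119 of the 225 genes still passed. Asking for 2-fold in only 2 libraries, which lets more genes through, gave 126 to 219 higher and 373 to 575 lower.

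Fnip2, a partner of folliculin in nutrient signalling at the lysosome, headed the genes ranked by their smallest ratio over the 3 libraries. It stood at 382 against 119 CPM in the vehicle library, 272 against 77.2 in the p38i library and 468 against 125 in the p38KO library. Its level in the members was above that in the other neutrophils in each library, with log2 ratios of 1.68, 1.82 and 1.90. Ccl3 itself, fixed by the choice, had log2 ratios of 1.79, 1.67 and 2.02. Hilpda stood at 3333 against 1218 CPM in the vehicle library, 2693 against 1059 in the p38i library and 2431 against 907 in the p38KO library, with log2 ratios of 1.45, 1.35 and 1.42. The ratios of this marker were close to each other in the 3 libraries although its level was not. Vegfa, the angiogenic growth factor, stood at 220.0 against 94.2 CPM in the vehicle library, 191 against 80.8 in the p38i library and 141 against 66.8 in the p38KO library (log2 ratios 1.22, 1.24 and 1.08). Gbe1, the glycogen branching enzyme, had log2 ratios of 1.14, 1.42 and 1.46.

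The other leading genes had varied roles. Atp6v1c1, a subunit of the proton pump that acidifies lysosomes, stood at 255 against 68.8 CPM in the vehicle library, 198 against 66.0 in the p38i library and 216 against 81.0 in the p38KO library. Cstb, a cytosolic inhibitor of cathepsins, reached 2754, 2282 and 3049.8 CPM in the members and 941, 933 and 1061 CPM in the others, so that the groups did not overlap over the 3 libraries. Nceh1 had log2 ratios of 1.54, 2.02 and 1.48, and Hmox1, the heme-degrading enzyme, of 1.25, 1.22 and 1.14. The leading genes also included the early endosome tether Eea1 (1.34, 1.22 and 1.55), the transcriptional repressor Tgif1 (1.51, 1.12 and 1.63), the transcriptional regulator Ifrd1 (2.04, 1.41 and 1.61) and the mitochondrial import receptor Tomm20 (1.25, 1.14 and 1.44). Set against only the neutrophils with neither Ccl3 nor Cxcr2, Hmox1 differed less. Those cells held 801, 444 and 1117 CPM of it in vehicle, p38i and p38KO. Members with 1 Ccl3 UMI held 1715, 622 and 896 CPM, those with 2 held 1975, 656 and 1178. Members with 3 or more held 867, 896 and 928 CPM. In p38KO, members with 1 and with 3 or more UMIs thus lay below the cells with neither gene. Of the hypoxia and glycolysis list, 35 of 37 genes were measured and 29 lay above 0 on the log2 scale in all 3 libraries, while 2 were 2-fold higher. The list's median log2 ratios were 0.77, 0.57 and 0.55, beside -0.05, 0.08 and -0.25 for all genes measured. Of the lysosome, lipid and iron list 1 of 33 measured genes, Hmox1, was 2-fold higher in every library and 19 lay above 0 on the log2 scale. Of the unfolded protein and ATF4 stress list none of 17 was 2-fold higher and 10 lay above 0. Over all genes 1476 of 6654 lay above 0 in every library.

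The genes lower in the members included granule protein genes. Anxa1, which encodes an anti-inflammatory protein abundant in circulating neutrophils, stood at 206 against 831 CPM in the vehicle library, 249 against 856 in the p38i library and 161 against 567 in the p38KO library. Its levels in the members lay below those in the others with no overlap. Hp (haptoglobin, a granule protein) had log2 ratios of -2.40, -2.05 and -1.92, Selplg (the selectin ligand PSGL-1) of -1.75, -1.67 and -2.05, Lrg1 of -2.09, -1.54 and -2.49 and Pglyrp1, a bactericidal granule protein, of -2.41, -1.57 and -1.53. Csf3r was moderately lower, with log2 ratios of -0.72, -0.58 and -0.88. Of 31 granule protein genes 25 were measured, 7 were at least 2-fold lower and 21 were below 0 on the log2 scale in all 3 libraries, with list medians of -1.24, -0.92 and -0.91. Of all 6654 genes 3.38% were 2-fold lower and 1818 below 0 in every library. Cxcl10 and Ifit1 were also among the 20 lowest, as were Cxcr2 and F3, but the choice capped or removed these genes or their programme.

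**Figure D3:**
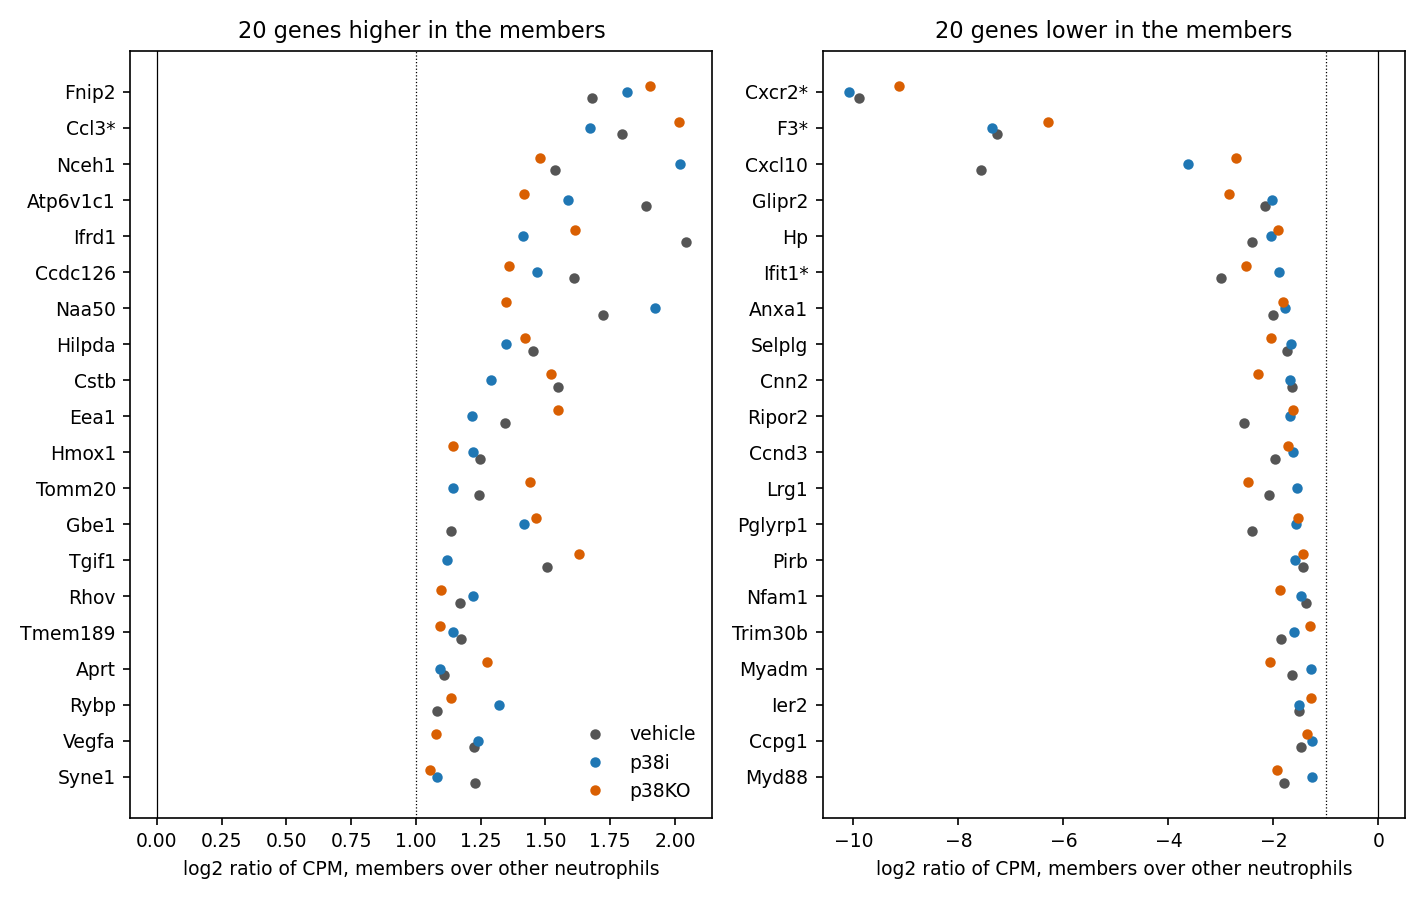
Log2 ratio of CPM in Ccl3-positive Cxcr2-negative neutrophils (the members) over all other neutrophils of the same library (x axis) for the 20 genes highest (left) and lowest (right) in the members. Each point is 1 library of vehicle, p38i or p38KO, the dotted line marks 2-fold, asterisks mark genes the choice used, and all points shown lie beyond 2-fold.

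The members were next set against single groups of other neutrophils, with the same limit that the choice used the contrast. Against the largest other group, 3393 cells with Cxcr2 and without F3 or the interferon criterion, 174 of 5488 genes (3.17%) were at least 2-fold higher in the members and 302 (5.5%) lower in every library. Hilpda had log2 ratios of 2.51, 1.94 and 2.48 over that group and Cd274, the gene of PD-L1, 2.35, 1.76 and 1.68. Against the 826 F3-positive neutrophils there were 11 genes of 2617 (0.42%) in each direction. The hypoxia and glycolysis list had medians of 0.18, 0.12 and 0.31 over that group, beside 0.12, 0.12 and 0.08 for all genes. Of its 32 measured genes 16 lay above 0 in every library, beside 908 of 2617 genes in all, and none was 2-fold higher. Hilpda was above that group too, by 0.46, 0.45 and 0.89 on the log2 scale, and Fnip2 by 1.16, 1.29 and 1.79, whereas Cxcl2, which encodes a ligand of CXCR2, lay at -0.18, -0.26 and 0.24.

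Closest in the way they were chosen were 409 neutrophils without either Ccl3 or Cxcr2. Here 8 of 2059 genes (0.389%) were at least 2-fold higher in the members in all 3 libraries and 19 (0.923%) lower. This comparison group was small, with 125, 210 and 74 cells in vehicle, p38i and p38KO. Its deepest cell held 14986 of 299521, 34513 of 526560 and 28245 of 173728 summed UMIs. The counts and ratios of this paragraph include those cells, and no values without them are given. Of the chemokine and cytokine list 6 of 14 measured genes were 2-fold higher in all 3 libraries, among them Ccl3, which the choice fixed. Ccl4 (chr11:83662584-83664683, plus strand), the neighbour of Ccl3 on chromosome 11, stood at 3064, 1393 and 9119 CPM in the members and at 294, 192 and 898 CPM in these cells. The log2 ratios were 3.38, 2.86 and 3.34, and no member library overlapped a library of the comparison group. Cxcl2 had log2 ratios of 1.20, 1.33 and 1.72, Ccl6 of 2.20, 1.33 and 1.81 and Il1rn, the interleukin-1 receptor antagonist, of 1.52, 1.17 and 1.07. Spp1, which encodes osteopontin, had 1.93, 3.08 and 4.81, where 1 cell held 306 of its 384 counts in p38KO members. The hypoxia and glycolysis list had medians of 0.30, 0.41 and 0.40 and none of 31 measured genes 2-fold higher in all libraries.

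The p38i comparison asked what systemic p38 inhibition changed within these cells. Chemokine, cytokine and immediate-early transcripts were more often lower than higher in p38i members against vehicle members, and a few granule transcripts were higher. A gene was called when its log2 ratio was at least 0.5 either way, its 95% interval left out 0 and both libraries held at least 20 counts together, which is a rule of size and not a test. A gene could enter through the library where it was high, so the counts below describe the genes measured and not whole lists. Of 3784 genes measured, 337 (8.91%) were called higher and 201 (5.31%) lower. When the cell with most counts of each gene was left out of each library, 8.84% of 3426 genes were called higher and 4.9% lower, and 259 of the 337 and 162 of the 201 remained among them.

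Of 32 chemokine and cytokine genes 17 were measured in this comparison, 9 were called lower and none higher, beside 5.31% of all genes called lower. Ccl3, which the choice used, is 1 of the 9. With members thinned to 1500 UMIs 7 of 15 were called lower and the list's median log2 ratio was -0.33 in place of -0.67, and it was -0.46 without members holding at least 3 markers of another type. Ccl3 stood at 4937, 2556 and 5204 CPM in vehicle, p38i and p38KO members. The log2 ratio of p38i over vehicle was -0.95 (95% interval -1.05 to -0.85), between cells that all had a Ccl3 UMI by choice. Ccl4 stood at 3064, 1393 and 9119 CPM, and its p38i ratio was -1.14 (95% interval -1.27 to -1.01). Both chemokines were lowest in p38i. Every member held Ccl3 by choice, so its lower sum lay in fewer UMIs per member, as the counts per cell above show. A Ccl4 UMI was seen after thinning in 44.7% of vehicle and 36.0% of p38i members, a smaller relative difference than that of its level. Where no such share is given, the sums cannot tell apart fewer expressing cells and less RNA per cell. Cxcl2 reached 18935, 11913 and 26286 CPM, with a p38i ratio of -0.67 (95% interval -0.72 to -0.62). Il1a, an interleukin-1 cytokine, stood at 144, 51.0 and 388 CPM and had a ratio of -1.49 (95% interval -2.20 to -0.82), which was -1.04 without the highest cells. Osm (oncostatin M) stood at 306, 149 and 539 CPM, with -1.04 (95% interval -1.46 to -0.62) for p38i. Il1rn was lower by the same rule, at -0.68 (95% interval -0.85 to -0.51). Tnf was called lower at -1.05 (95% interval -2.04 to -0.11) from 27 and 16 counts, but without its highest cells the ratio was -0.58 and no longer called. Ccl5 was called lower from 18 and 5 counts, of which single cells held 14 and 3, and without them too few counts were left for a call. Il1b, the interleukin-1β gene, was not called, at 7489.6, 6927 and 8777 CPM and a ratio of -0.11 (95% interval -0.18 to -0.04). Cxcl3 was not called either, at -0.17 (95% interval -0.28 to -0.05).

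Immediate-early genes, which are transcribed within minutes of a stimulus, also had more lower calls in p38i than all genes did. Of 29 listed 22 were measured, 10 were called lower and none higher, beside 5.31% of all genes called lower. The median log2 ratio was -0.49, beside 0.11 for all genes measured. Dusp1 stood at 2434, 1072 and 2396 CPM, the p38i library being the low one, with a ratio of -1.18 (95% interval -1.33 to -1.03). Fos stood at 692, 421 and 679 CPM (log2 ratio -0.72, 95% interval -0.98 to -0.46) and Jun, its AP-1 partner, at 1274, 829 and 1354 CPM (log2 ratio -0.62, 95% interval -0.80 to -0.44). In these genes p38KO was close to vehicle. Ier3 was called lower at -0.50 (95% interval -0.63 to -0.38) and Rhob, a small GTPase, at -0.89 (95% interval -1.25 to -0.54). Zfp36 was at the limit, with -0.51 (95% interval -0.70 to -0.33), and was not called without its highest cells. Without the 6 members deeper than 3 times the median neutrophil of their library, 6 of 22 genes were called lower, and with members thinned to 1500 UMIs 5 of 20, with none higher in either case.

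Among NF-kB feedback and target genes, 6 of 24 measured were called lower and none higher in p38i, beside 5.31% of all genes called lower. Without each gene's highest cell 4 of 24 were lower, and the list's median log2 ratio moved from -0.37 to -0.15. Gadd45b, a marker of the cells, stood at 2791, 1651 and 3684 CPM, with -0.76 (95% interval -0.88 to -0.63) for p38i. In neutrophils with neither Ccl3 nor Cxcr2 it stood at 2143, 1415 and 2274 CPM in vehicle, p38i and p38KO. Tnfaip3 (A20, an inhibitor of NF-kB signalling) had -1.67 (95% interval -2.22 to -1.13), from 106 and 41 counts, and -1.07 without its highest cells, since 1 vehicle cell held 41 counts. Sod2, the mitochondrial superoxide dismutase, had -0.79 (95% interval -1.08 to -0.50) and Ptgs2, the cyclooxygenase that makes prostaglandins, -0.76 (95% interval -1.02 to -0.50). Hcar2 stood at 2418, 1565 and 3619 CPM, with -0.63 (95% interval -0.76 to -0.49) for p38i. The marker Hilpda (log2 ratio -0.31, 95% interval -0.41 to -0.20) was not called. Csf3r, a neutrophil gene that was lower in the members than in other neutrophils, was not called either (log2 ratio -0.17, 95% interval -0.39 to 0.05). Of 20 measured p38 pathway genes 4 were called lower, Dusp1, Dusp5, Gadd45b and Zfp36, beside 5.31% of all genes. Without very deep cells 2 of 20 were, and with members thinned 3 of 17, where the list's median was 0.02 in place of -0.21. Mapk14 itself had 2, 8 and 1 counts in vehicle, p38i and p38KO members, too few for a ratio, and the knockout was made in the tumor cells, so these counts do not check it.

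Higher in p38i were 8 of 21 measured granule protein genes, beside 8.91% of all genes called higher. The count was not repeated without genes used to choose the neutrophils, so it is a description. Mmp8, the neutrophil collagenase, stood at 97.3, 189 and 40.3 CPM (log2 ratio 0.96, 95% interval 0.42 to 1.51). Retnlg, which encodes a resistin-like protein and was among the genes used to choose neutrophils, is a description here. It stood at 871, 2218 and 931 CPM, p38i being high, with a ratio of 1.35 (95% interval 1.18 to 1.52) and 1.61 without the highest cells, although 4 cells held 554 of its 1175 counts in p38i. Lyz2, the lysozyme gene, had 2.12 (95% interval 1.71 to 2.55), but 1 cell held 239 of its 309 counts in p38i and the ratio without it was 0.13. Without each gene's highest cell 5 of 20 granule genes were called higher, and without the very deep cells 7 of 20, where Lyz2, Slpi and Cybb had negative ratios. H2-Aa, Cd74 and Cst3, genes of antigen-presenting cells, were called higher, yet 1 cell of 15844 UMIs held 83.2%, 78.4% and 68.6% of their p38i counts. Without very deep cells Cd74 and H2-Aa reversed, to -0.75 and -0.25 on the log2 scale. Spp1 was higher in p38i at 255, 659 and 1933 CPM, with 1.37 (95% interval 1.06 to 1.69) and 1.37 without the highest cells, and was seen in 30 vehicle and 47 p38i members.

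**Figure D4:**
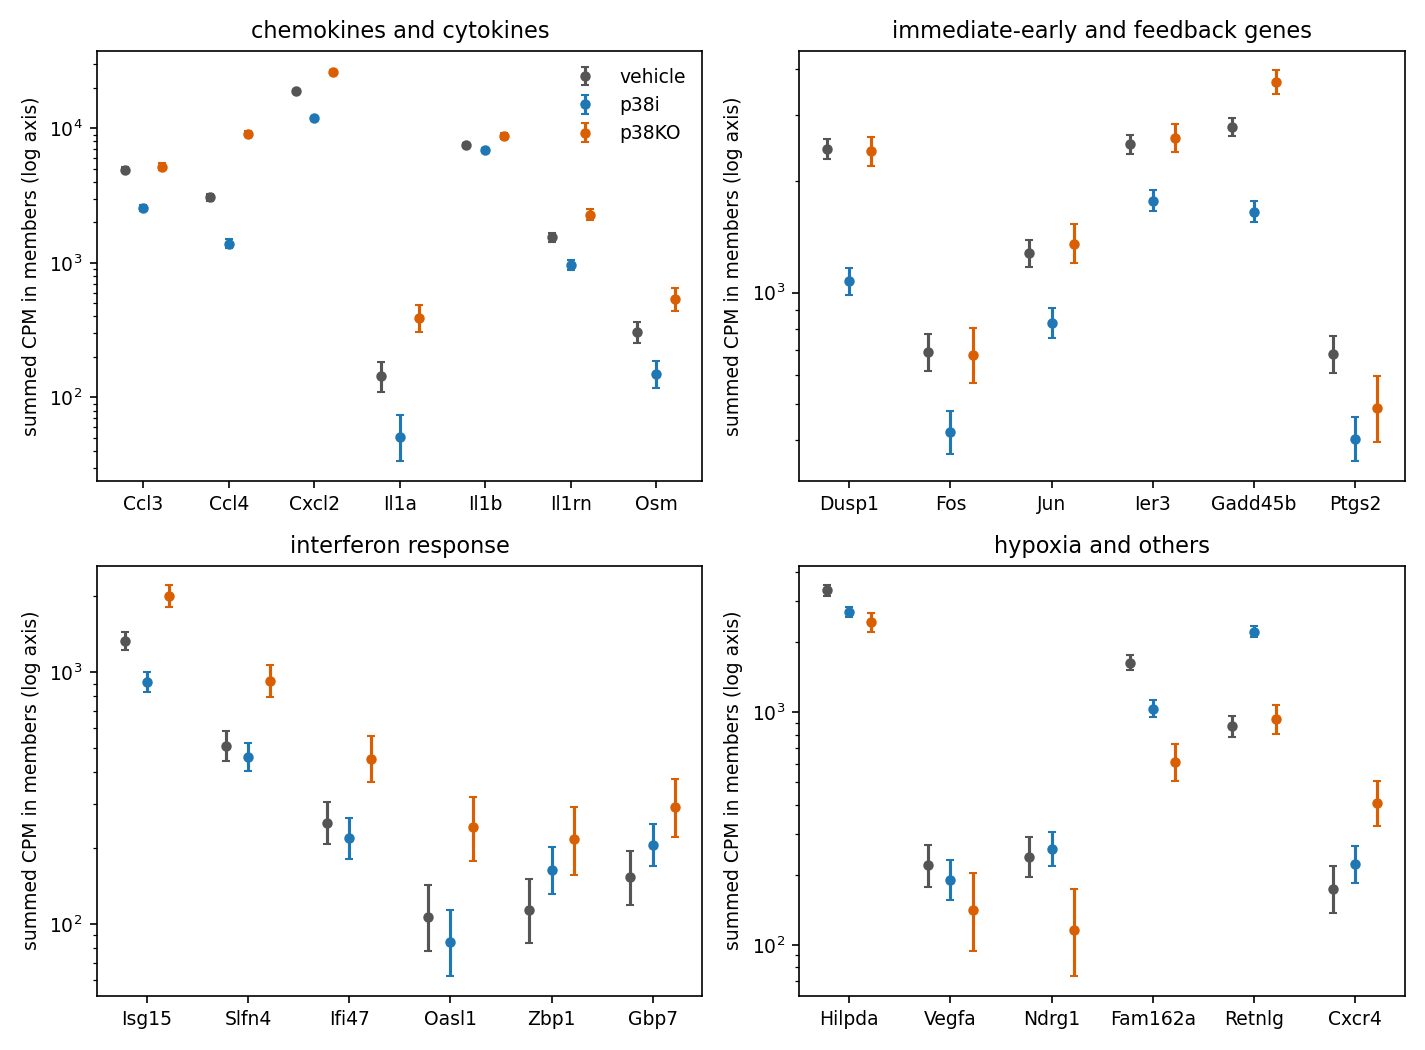
Summed CPM in the Ccl3-positive Cxcr2-negative neutrophils of vehicle, p38i and p38KO (y axis, log scale) for 25 genes in 4 groups. Points are single libraries and bars are exact Poisson 95% intervals (counting error only). Dusp1, Fos and Jun are lowest in p38i and close in vehicle and p38KO, and the interferon-response genes are highest in p38KO.

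The p38KO comparison asked how neutrophils of the same kind looked in tumors whose cancer cells lacked p38α. Interferon-response transcripts were more often called higher than lower in p38KO members against vehicle members, several hypoxia-response transcripts were lower, and chemokines were divided. The macrophage marker list also stood at 533 CPM in p38KO members against 192 in vehicle members. The median mitochondrial share was 0.573% against 0.254%. The part of either in these calls was not tested. Of 2813 genes measured, 223 (7.93%) were called higher and 196 (6.97%) lower. Without each gene's highest cell, 6.49% of 2526 genes were called higher and 8.19% lower, and 161 of the 223 and 157 of the 196 remained among them. This comparison shares its vehicle library with the p38i comparison, so both sets of values are given side by side and their overlap supports nothing.

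Of 38 interferon-response genes that the choice did not use, 32 were measured in p38KO, 21 were called higher and 1 lower, beside 7.93% and 6.97% of all genes. The median log2 ratio was 0.83, beside -0.03 for all genes. The same list had 4 called higher and 2 lower of 32 in p38i, beside 8.91% and 5.31% of all genes. Its p38i median was -0.12 and turned to 0.02 with members thinned, 0.12 when 2 Ccl3 UMIs were required and 0.08 without members holding other markers. Without each gene's highest cell 17 of 31 were called higher in p38KO, beside 6.49% of all genes. Without members holding at least 3 markers of another type 19 of 32 were called higher. Isg15, a ubiquitin-like antiviral protein, stood at 1332, 912 and 2008 CPM, with 0.59 (95% interval 0.40 to 0.78). Slfn4, an interferon-induced gene of myeloid cells, stood at 509, 461 and 926 CPM (log2 ratio 0.86, 95% interval 0.57 to 1.15). The p38KO level of both lay above the other libraries. Oasl1, which encodes an antiviral regulator, stood at 107, 84.9 and 242 CPM (log2 ratio 1.18, 95% interval 0.57 to 1.80), and Ifi47, an interferon-induced GTPase, at 252, 219 and 453 CPM (log2 ratio 0.84, 95% interval 0.42 to 1.26). Zbp1, a sensor of nucleic acids, was called higher in both treatments, with 0.53 (95% interval 0.01 to 1.07) in p38i and 0.93 (95% interval 0.31 to 1.55) in p38KO. Irf7 was not called, at 0.36 (95% interval -0.22 to 0.93). Members held fewer than 3 of the 7 interferon genes used in the choice, so these are levels of cells below that limit in all 3 libraries.

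Chemokine and cytokine genes went both ways in p38KO, with 7 of 18 measured called higher and 2 lower, beside 7.93% and 6.97% of all genes. When each gene's highest cell was left out, 5 of 15 were called higher and 3 lower. Ccl5 was among the 7, but all its 24 counts in p38KO lay in 1 cell, without which too few counts were left. Ccl4, whose levels are given above, had a p38KO ratio of 1.57 (95% interval 1.47 to 1.68). Of its 1812 counts 4 cells held 943, and without the highest cell the ratio was 1.43. After thinning a Ccl4 UMI was seen in 54.3% of p38KO members. Ccl3 was not called, at 0.08 (95% interval -0.03 to 0.18). Il1a was called higher at 1.43 (95% interval 0.93 to 1.94), Osm at 0.82 (95% interval 0.44 to 1.20) and Il1rn at 0.56 (95% interval 0.39 to 0.73). Csf3 was called higher from 43 counts in 5 members, against 1 count in vehicle and 0 in p38i, and Cxcl10 from 36 counts in 6 members, 28 of them in 1 cell, without which too few counts were left for a call. Lower were Cxcl3, at 2668, 2374 and 1414 CPM (log2 ratio -0.92, 95% interval -1.11 to -0.73), and Ccl6, at 2054, 1725 and 1434 CPM (log2 ratio -0.52, 95% interval -0.72 to -0.32). Immediate-early genes had 3 of 22 called higher and none lower, or 2 of 20 without the highest cells, against 7.93% of all genes called higher. NF-kB feedback and target genes had 7 of 24 higher and 1 lower, or 6 and 1 without the highest cells.

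Of the hypoxia and glycolysis genes 7 of 33 measured were called lower and none higher in p38KO, with a median log2 ratio of -0.30, beside 6.97% of all genes called lower. Without the highest cells 10 of 33 were called lower, beside 8.19% of all genes. In p38i members 4 of 34 were called lower and none higher (median -0.21), beside 5.31% of all genes called lower. Neutrophils with neither Ccl3 nor Cxcr2 had 9 of 33 called lower in p38KO, beside 5.63% of all genes, and 6 of 33 in p38i, beside 5.83%. Cxcr2-positive neutrophils had 2 of 34 called lower in p38KO (median -0.27), beside 2.83% of all genes, and 2 higher and none lower of 35 in p38i (median 0.07). The differences between these groups of cells were not tested. Vegfa stood at 220.0, 191 and 141 CPM (log2 ratio -0.64, 95% interval -1.31 to -0.02) and Ndrg1, a hypoxia-induced stress protein, at 239, 259 and 116 CPM (log2 ratio -1.04, 95% interval -1.76 to -0.38). Fam162a, a mitochondrial protein induced by hypoxia, was lower in both treatments, at 1628, 1034 and 609 CPM, with -0.65 (95% interval -0.82 to -0.49) in p38i and -1.42 (95% interval -1.71 to -1.14) in p38KO. Hilpda, at 3333, 2693 and 2431 CPM, had a p38KO ratio of -0.46 (95% interval -0.61 to -0.31) and was called only without its highest cells (-0.62). Nos2, the inducible nitric oxide synthase, was called lower at -1.09 (95% interval -2.08 to -0.21), whereas Cd274 (log2 ratio -0.11, 95% interval -0.30 to 0.08) was not called. Saa3, an acute-phase gene, stood at 509, 936 and 116 CPM and was seen in 15 vehicle and 3 p38KO members, with -2.14 (95% interval -2.83 to -1.52) for p38KO, and was higher in p38i at 0.88 (95% interval 0.65 to 1.11). Hspa1a, which shares most of its sequence with Hspa1b, had -2.82 (95% interval -5.15 to -1.18) from 46 and 3 counts.

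Further genes higher in p38KO members were Cxcr4, the CXCL12 receptor that retains neutrophils in the marrow, at 174, 223 and 408 CPM (log2 ratio 1.23, 95% interval 0.76 to 1.70), and Cyp4f18, a leukotriene-degrading enzyme, at 181, 234 and 835 CPM (log2 ratio 2.21, 95% interval 1.81 to 2.62). Spp1 had the ratio 2.92 (95% interval 2.61 to 3.24), or 0.88 without the cell that held 306 counts. Apoe (log2 ratio 1.61, 95% interval 0.99 to 2.23), Fabp5 (log2 ratio 1.35, 95% interval 1.00 to 1.70), Cd74 (log2 ratio 1.15, 95% interval 0.56 to 1.73) and H2-Eb1 (log2 ratio 1.80, 95% interval 1.04 to 2.58) were called higher as well. These 4 genes are abundant in macrophages, whose marker list was higher in p38KO than in vehicle in the members and in Cxcr2-positive cells, and its part in these calls was not tested.

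**Figure D5:**
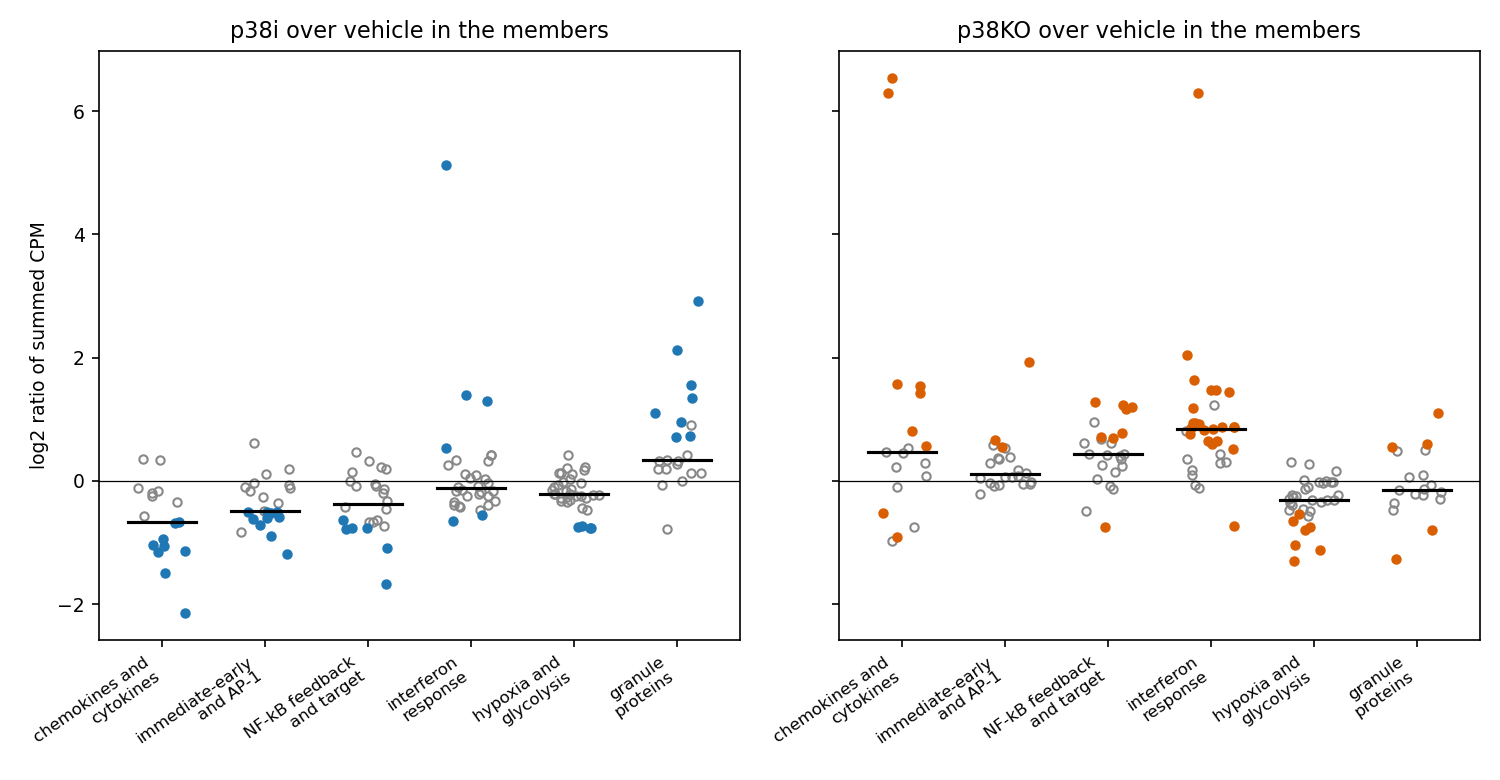
Log2 ratio of summed CPM over vehicle (y axis) in the Ccl3-positive Cxcr2-negative neutrophils for each measured gene of 6 lists (x axis), p38i on the left and p38KO on the right. Filled points were called, open points were not, and black bars are list medians. Chemokine and immediate-early genes lie mostly below 0 in p38i (medians -0.67 and -0.49, or -0.33 and -0.32 with members thinned to 1500 UMIs) and interferon-response genes above 0 in p38KO (median 0.83).

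For the other lists the share of all genes called was 8.91% higher and 5.31% lower in p38i, and 7.93% higher and 6.97% lower in p38KO. Of 22 unfolded protein and ATF4 stress genes 14 were measured in p38i, 3 were called lower and none higher, and of 13 in p38KO 2 were lower and 1 higher. Without each gene's highest cell the p38KO counts were 5 lower and none higher of 12. Ddit3 (CHOP), a transcription factor of that response, stood at 565, 359 and 644 CPM, with -0.66 (95% interval -0.94 to -0.38) for p38i and 0.19 (95% interval -0.13 to 0.50) for p38KO. Dnajb9, an endoplasmic reticulum chaperone, was lower in both, at -0.58 (95% interval -1.03 to -0.13) and -0.75 (95% interval -1.44 to -0.11). Of 26 genes of chemoattractant and growth factor receptors 21 were measured in each, with 4 called lower and none higher in p38i, and 3 higher and 1 lower in p38KO, or 1 higher and none lower with members thinned. Of the lysosome, lipid and iron genes 4 of 30 were called in each direction in p38i, but 3 higher and 10 lower with scaling by the median ratio, 3 and 8 without very deep cells, and 2 and 8 with members thinned. In p38KO 5 of 29 were higher and none lower. In that list Hmox1 was called lower in p38i at -0.54 (95% interval -0.74 to -0.35) but not without its highest cells (-0.41).

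Of 2803 genes measured in both comparisons, 26 were called higher in both, 24 lower in both, 19 lower in p38i and higher in p38KO, and 17 the reverse. Without each gene's highest cell these became 17, 15, 15 and 10. Among those lower in p38i and higher in p38KO were Ccl4, Il1a, Il1rn, Osm, Hcar2, Isg15 and Rhob. Hcar2 showed the pattern in cells chosen without it, at 2418, 1565 and 3619 CPM in vehicle, p38i and p38KO.

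The same treatments were read in the Cxcr2-positive neutrophils of the same libraries to see where the members differed. Of 7851 genes measured there for p38i, 6.13% were called higher and 2.96% lower. For p38i the chemokine list had 4 called higher and 4 lower of 22 there (median 0.04). In the members the counts were 0 and 9 of 17, Ccl3 among the 9 through the choice, and the difference between the lists was not tested. Ccl4 was lower in both, at -0.52 on the log2 scale in Cxcr2-positive cells, and the difference of the log2 ratios was -0.62 (95% interval -0.77 to -0.47). For Gadd45b the difference was -0.65 (95% interval -0.80 to -0.50), with a ratio of -0.11 in Cxcr2-positive cells. Dusp1 went the other way in size, with -1.74 in Cxcr2-positive cells and a difference of 0.56 (95% interval 0.40 to 0.72). For Fos the difference was -0.05 (95% interval -0.32 to 0.21), an interval that holds 0. Of 7283 genes measured for p38KO in Cxcr2-positive cells, 8.46% were called higher and 2.83% lower. For p38KO the chemokine list had 12 called higher and 1 lower of 22 in Cxcr2-positive cells (median 0.54). The NF-kB feedback and target list had 12 higher and 0 lower of 26 (median 0.43). How these counts differ from those in the members was not tested. Markers of other cell types were also called higher in p38KO Cxcr2-positive cells. These were 13 of 14 measured mast cell and basophil markers and 8 of 10 macrophage markers. In the members no mast cell or basophil marker had enough counts, and 1 of 2 measured macrophage markers was called higher. The part of other cell types in these calls was not tested. The interferon list had 9 called higher and 2 lower of 35 in Cxcr2-positive cells (median 0.32). The difference for Slfn4 was 0.41 (95% interval 0.11 to 0.71) and for Ifi47 0.87 (95% interval 0.44 to 1.29). For Ndrg1 the difference was -0.65 (95% interval -1.37 to 0.07). In neutrophils with neither Ccl3 nor Cxcr2, 11% of 3636 genes were called higher and 5.83% lower for p38i, and 12.3% of 2486 and 5.63% for p38KO. In that group 1 cell held 34513 of 526560 UMIs in p38i and 1 cell 28245 of 173728 in p38KO. Its calls were not repeated without the highest cells. The chemokine list of that group had 1 called higher and 4 lower of 12 for p38i, the immediate-early list 0 and 12 of 22, and the interferon list for p38KO 2 and 2 of 31. The immediate-early list thus had more lower than higher calls for p38i in those cells as well. In Cxcr2-positive cells it had 2 called higher and 5 lower of 29 (median -0.21). The difference between the interferon count in neutrophils with neither gene and the 21 of 32 in the members was not tested. All of these intervals treat the summed UMIs as independent counts and so leave out variation between cells. They also leave out variation between animals and libraries, which 1 library per group cannot give.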

How the data were processed

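Each library held CD45+ cells of 3 pooled tumors, prepared with 10x Genomics 3′ reagents and sequenced by the study. The authors deposited unnormalized UMI counts per gene and barcode, made with Cell Ranger (6.0.0 per the file headers) on mm10. The submitters' processing notes also name R 4.2.1 and Seurat 5. From these counts, cells were kept from 1500 UMIs and 300 genes upward if mitochondrial transcripts made up no more than 20%. No doublet caller was run. Cells over 3 times their library's median neutrophil depth, and members with at least 3 markers of another type, were instead left out as alternatives. The members and gene lists were chosen with earlier results of these data known.

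Counts of the members were summed per library and divided by the summed total to give CPM (counts per 1000000). Intervals were exact Poisson for CPM, conditional binomial for log2 ratios and Clopper-Pearson for shares (95%). They cover counting error only, and with 1 library per group no test was run. Genes in treatment comparisons needed 20 counts over both libraries. The ratio and its interval were run on Poisson counts simulated from the members' summed counts, with known changes in some genes. Such counts meet the interval's own assumption and hold no variation between cells. The simulation could therefore check the calculation but not whether the intervals cover the spread in real cells. Named genes were the choice and marker genes, the 20 highest and lowest against other neutrophils ranked by the smallest ratio over the libraries, the 12 with the largest change each way in each treatment, the 8 in each pattern over both treatments, and members of 30 lists, from which examples were given. Of the list symbols 5 were absent from the table (Ero1a, BC100530, Mx1, Mx2 and Clec7a). Gene positions are GENCODE M21 (GRCm38), and promoters are RefSeq (GRCm38.p6). Alternatives were scaling by the median ratio, other count minimums and fold limits, thinning to 1500 UMIs, stricter choices of members, and leaving out a library or cells. Results of some items are not reported here. Python 3.11.15, numpy 2.4.6, scipy 1.17.1, pandas 2.3.3 and matplotlib 3.10.9 were used.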

Additional observations from a re-analysis of the deposited data

Results flagged for a closer look

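For 6 genes the Ccl3-positive Cxcr2-negative neutrophils and the Cxcr2-positive neutrophils of the same libraries were called in opposite directions against vehicle, also without the highest cell of each. The difference was not tested, since each condition had 1 library, and the genes were picked because they differ. In p38i, Ccl9, a chemokine for CCR1, had a log2 ratio of -1.16 in the members, from 40 and 22 counts, and of 1.82 in Cxcr2-positive cells. Sod2 had -0.79 against 0.54 and Ifrd1 -0.66 against 0.52. In p38KO, the MHC class II pathway genes Cd74 (1.15 against -0.79) and H2-Eb1 (1.80 against -1.18) were higher in the members and lower in Cxcr2-positive cells. The macrophage marker list summed to 533 CPM in p38KO members and 535 CPM in p38KO Cxcr2-positive cells, against 192 and 234 CPM in vehicle. The dendritic cell list, led by H2-Ab1, stood at 109 CPM in vehicle and 191 CPM in p38KO members. In Cxcr2-positive cells it stood at 153 and 119 CPM. The part of these markers in the calls was not tested. Kmt5b, a histone methyltransferase, had -1.33 against 0.52, from 49 and 9 counts in the members.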

How the results depend on the processing

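The share of members among neutrophils was lowest in p38KO under every alternative below. It was 10.96%, 11.2% and 7.28% in vehicle, p38i and p38KO with cells thinned to 1500 UMIs, 7.25%, 6.82% and 4.17% when 2 Ccl3 UMIs were required, 6.82%, 7.06% and 4.19% with 4 neutrophil markers, and 22.1%, 24.4% and 17.3% with any Cxcr2 count. Without a cell filter it was 9.86%, 10.8% and 6.63%. Genes called higher in p38i (337) fell to 198 with a minimum of 50 counts, 203 at a log2 ratio of 1, 150 with thinned members, 215 without very deep cells and 218 without members that held 3 markers of another type. At a log2 ratio of 1 the genes lower in p38i were 66 (of 201), and those higher and lower in p38KO 121 and 100 (of 223 and 196). Leaving out 1 library gave 126 to 219 genes higher and 373 to 575 lower than in other neutrophils, since fewer libraries had to pass. Among alternative values of shares, gene counts and list medians, 84 stayed close to the reported value and 27 moved. Of 767 other values for genes named here, 691 lay within the reported interval and 61 moved outside it with the same sign. The remaining 15 reversed. In p38i without very deep cells these were Cd74 (-0.75), H2-Aa (-0.25), H2-Eb1 (-1.37), Lyz2 (-0.56), Slpi (-0.15) and Cybb (-0.18), and without members with markers of another type Cd74 (-0.72), H2-Aa (-0.038), H2-Eb1 (-1.12), Lyz2 (-0.57) and Slpi (-0.21). H2-Eb1 was -0.23 without its highest cell and -0.28 when 2 Ccl3 UMIs were required. In p38KO Ccl5 was -1.88 without its highest cell and -3.72 when 2 Ccl3 UMIs were required, as 1 cell held its 24 counts. Rescaling by the median ratio changed the sign of none of 34 list medians. The alternatives without the highest cells and without members with other markers were chosen after seeing the data. No paired analysis was possible because each group had 1 library and the labels carry no replicate numbers. With 92 members in p38KO, genes under 20 counts over both libraries could not be compared.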
